A study of Mus musculus with 24 samples.

Results

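The SLAM family is a set of immunoglobulin-type receptors on the surface of lymphocytes, and it is described here together with its signaling adaptor SAP. The members were chosen by gene symbol: Slamf1, Slamf6, Slamf7, Ly9, Cd48 and Cd84 for the receptors and Sh2d1a for the adaptor. They are 7 of the 17871 genes on the array and are read by 9 of its 25697 probes. RNA was measured on 24 arrays (Illumina MouseRef-8 v2) of CD4+ T cells from WT mice and from mice whose T cells lack BAF180, a subunit of the PBAF chromatin remodeling complex encoded by Pbrm1. Naïve cells and Th2 cells were each taken at rest and after stimulation from both genotypes, with 3 arrays (replicates A, B and C) per genotype and state. Resting Naïve cells were CD4+CD62L+ cells of 95% purity from spleen and lymph nodes of animals 4 to 6 weeks old. Stimulated Naïve cells had been cultured for 24 h on plates coated with anti-CD3 (1 µg/ml) and anti-CD28 (2 µg/ml). Resting Th2 cells had been primed on the same antibodies with IL-4 (10 ng/ml), an antibody to interferon-gamma (10 µg/ml) and then IL-2 (100 U/ml). Stimulated Th2 cells were resting Th2 cells given PMA (50 ng/ml) and ionomycin (500 ng/ml) for 1.5 h, so that the Naïve and the Th2 stimulation differed in agent and in length. The BAF180-deficient mice (KO, Pbrm1 cKO) carried a floxed allele and Cre under the CD4 promoter, which acts late in thymocyte development and so before any culture. The study's immunoblot showed the loss of the protein in Th2 cells. For Naïve cells the loss is inferred from the Cre driver and from lower Pbrm1 RNA. The labels call all mice Balb/c, whereas the methods describe a mixed background.

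Most SLAM receptors are their own ligands: a receptor on a T cell binds the same receptor on a B cell, a myeloid cell or another T cell. CD48, which is anchored in the membrane by a lipid, instead binds CD2 and CD244. The tails of most of the other receptors carry tyrosine motifs that bind SAP, a small adaptor made of an SH2 domain, and SAP brings in the kinase Fyn. In CD4 T cells this pathway is known for IL-4 production by Th2 cells, for help to germinal centre B cells and for the development of NKT cells. The 6 receptor genes lie next to each other in 1 cluster on mouse chromosome 1, with Cd244a at its edge, and Sh2d1a lies on chromosome X.

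The part of each transcript that was read decides what a value stands for, so the first 30 of the 50 bases of each probe are shown, 5′ to 3′, with no base set apart. Positions count from the first base of the transcript for which the probe was designed, so every probe lies in exons, and whether it lies in the coding part was not tested. The genome build behind the coordinates in the table is not given in the sources used here, and coordinates are not printed.
Slamf1, from base 1334: ccgtggtacagtgtaccatctttgctgtag
Slamf1, from base 1090: gccagagagctgacccatatacccagtgaa
Ly9, from base 2011: cctgccatggcttagactagcctgaatttg
Ly9, from base 1134: ggatgcctctacaaaacaaagctgtcatgt
Cd84, from base 732: gccgtgctctttctgcttattctcattccg
Slamf7, from base 3907: ccagcagctatgagccaggtgctgtgttac
Slamf6, from base 2183: gacctcaacttaaatacatcatcttctata
Cd48, from base 848: ctctggctctattggacaaaggaaaatgtg
Sh2d1a, from base 402: cgcctctgcagtatccagttgaaaagtcct
Slamf1 and Ly9 each have 2 probes, and the brighter one, which stands first, is the lead probe whose values are given unless the other is named. The probes' share of G and C ran from 38.0% for Slamf6 to 58.0% for Sh2d1a. Because probes differ in how strongly they bind, a level of one gene is never set against that of another.

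A probe was called detected on an array when its deposited detection p-value was at most 0.02. The 9 probes passed the filter, which asked for detection on at least 1 array and left 14246 probes of 10418 genes. The lead probes of Slamf1, Ly9, Cd84 and Sh2d1a were detected on 24 arrays, that of Cd48 on 20, that of Slamf7 on 16 and that of Slamf6 on 4. Levels are log2 intensities after background correction and quantile normalization over all arrays. Between 8047 and 10689 probes were detected per array, and the number of arrays, 3 a group, limits the precision. Pbrm1 checked the genotypes: in resting Th2 cells its brightest probe read 8.91, 8.91 and 8.74 in WT and 7.05, 7.11 and 6.91 in BAF180-deficient cells. In resting Naïve cells, where the difference was smallest, it read 8.07, 8.58 and 8.55 against 7.75, 7.16 and 7.29. It was lower without BAF180 in every state, by 1.00 (resting Naïve) to 1.83 (resting Th2). Whether that probe lies in the deleted exon was not tested. All 7 CD4 T cell markers (Cd4, Cd3d, Cd3e, Cd3g, Cd5, Cd28 and Lat) passed the filter, and their mean level lay between 8.75 and 9.47 in the 8 groups.

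**Figure D1:**
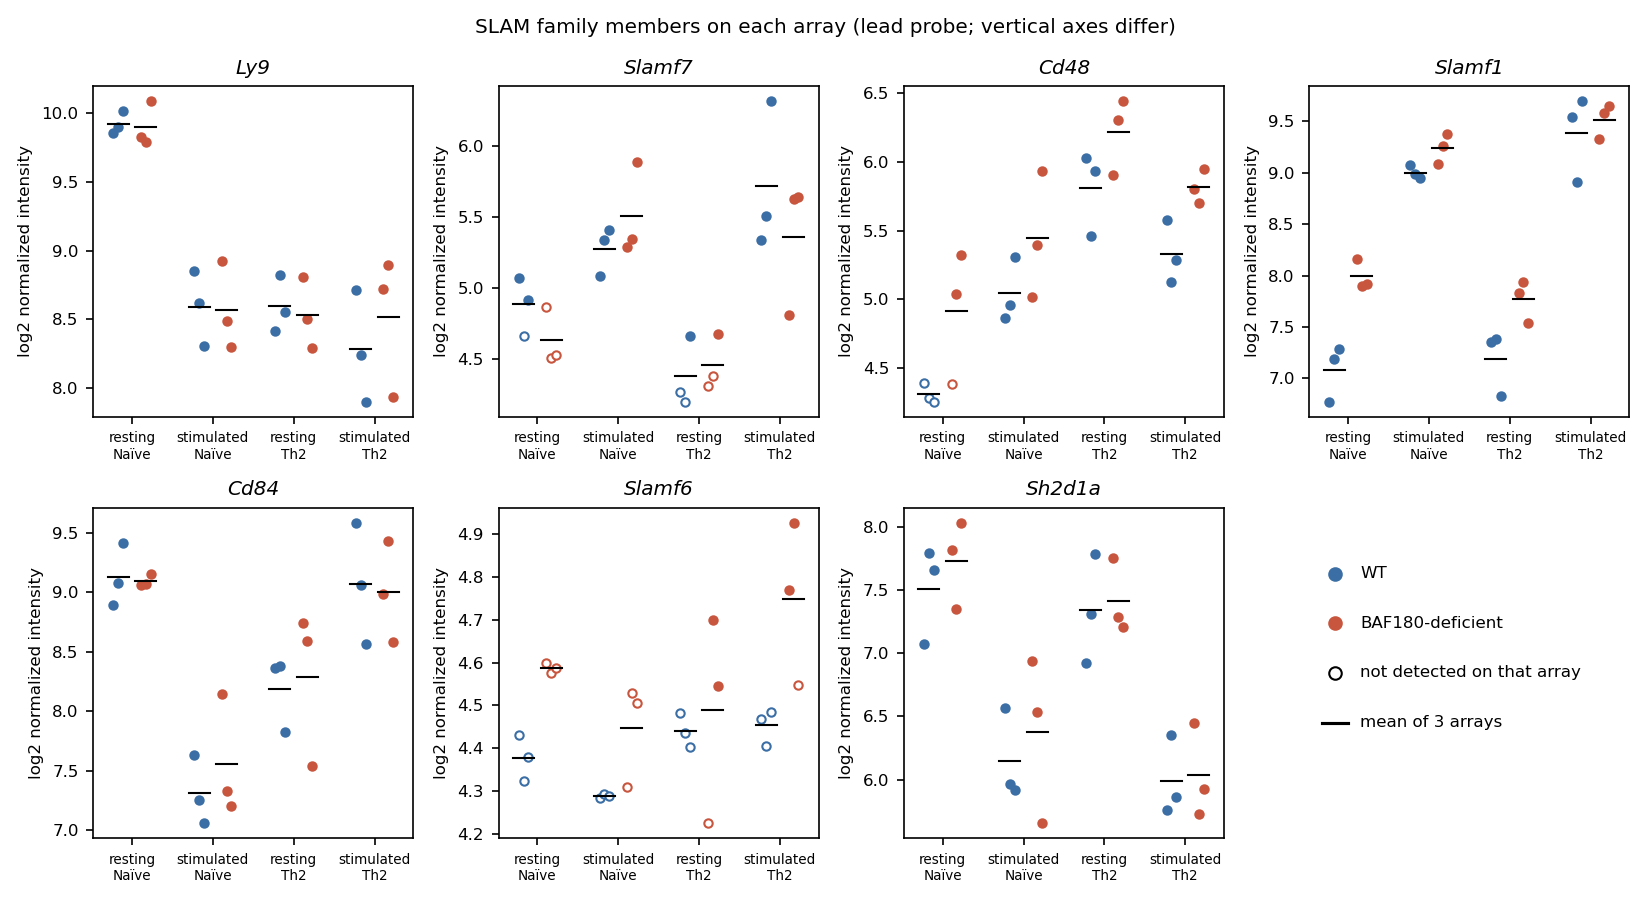
Log2 normalized intensity of the lead probe of each SLAM family member (vertical axes, which differ between panels) in the 4 cell states (horizontal axes), with 1 point per array, WT in blue and BAF180-deficient in red, open points where the probe was not detected and bars for the mean of 3 arrays. Slamf1 is high in both stimulated states, Sh2d1a in both resting states, Ly9 in resting Naïve cells alone, and all WT points of Slamf6 are open.

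Slamf1 (SLAM, CD150), a receptor that binds itself, rose with activation in both cell types. In WT resting Naïve cells its 3 arrays read 6.77, 7.19 and 7.28, and after 24 h of stimulation 9.07, 8.99 and 8.94, a rise of 1.92 ± 0.19 (SE, log2 scale, 3 arrays a group), or 3.78-fold (limma, adjusted p = 7.7e-08). In WT Th2 cells it went from 7.35, 7.38 and 6.83 at rest to 9.54, 8.91 and 9.70 after 1.5 h of PMA and ionomycin, a rise of 2.19 ± 0.19, or 4.58-fold (limma, adjusted p = 2.86e-08). No stimulated array was as low as the highest resting one in either cell type. The other probe of Slamf1 rose by 1.15 ± 0.27 and 2.25 ± 0.27 in these comparisons, and over the 24 arrays the probes had an r of 0.877. The order of the WT means was stimulated Th2, stimulated Naïve, resting Th2 and resting Naïve, and of these neighbours only stimulated Naïve and resting Th2 differed (by 1.81, adjusted p = 7.52e-07). Resting Th2 and resting Naïve cells differed by 0.11 ± 0.19 (adjusted p = 0.716).

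Ly9 (CD229), another self-binding receptor, was set apart by resting Naïve cells. Its WT arrays read 9.86, 9.90 and 10.02 in resting Naïve cells against 8.85, 8.62 and 8.30 once these were stimulated. Th2 arrays read 8.41, 8.82 and 8.55 at rest and 8.71, 8.24 and 7.90 after stimulation. All resting Naïve arrays were above all others, and the other states overlapped. Ly9 fell by 1.33 ± 0.24 with stimulation of Naïve cells (adjusted p = 0.000102) and was lower by the same 1.33 ± 0.24 in resting Th2 than in resting Naïve cells (adjusted p = 0.000181, limma). These 2 comparisons share the resting Naïve arrays. Before normalization the WT intensities were 380.0 to 755.0 at rest and 363.6 to 598.4 after stimulation, while the intensities of all kept probes summed to between 1720029 and 2533274 per WT resting Naïve array and to between 2899782 and 4156626 per stimulated one. With the array medians set equal in place of quantile normalization, Ly9 fell by 0.61 with stimulation (adjusted p = 0.0344) and was 0.84 lower in resting Th2 cells, and the median of all probes on stimulation then stood at -0.17, against 0.01 with quantile normalization. The other probe of Ly9 did not follow the lead probe (r = 0.165 over 24 arrays), and its WT means were between 6.30 and 6.68 in all states, so the Ly9 values hold for the part of the transcript read from base 2011.

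Cd84, also a self-binding receptor, went opposite ways in the 2 stimulations. WT arrays read 8.89, 9.08 and 9.41 in resting Naïve cells and 7.64, 7.25 and 7.06 after stimulation, a fall of 1.81 ± 0.31, or 3.51-fold (adjusted p = 7.6e-05, limma), which was 1.16 with array medians set equal. In Th2 cells they read 8.36, 8.38 and 7.83 at rest and 9.59, 9.06 and 8.57 after stimulation, a rise of 0.88 ± 0.31, or 1.84-fold (adjusted p = 0.0403). In neither cell type did the stimulated and resting WT arrays overlap. The rise in Th2 cells was the less certain: it was no longer called under 10 of 17 alternatives, and it missed the adjusted p of 0.05 when stimulated replicate A (0.62, adjusted p = 0.213), stimulated replicate B (0.89, 0.0843) or resting replicate A (0.97, 0.0554), B (0.98, 0.053) or C (0.70, 0.168) of the WT Th2 arrays was left out. Cd84 was also lower in resting Th2 than in resting Naïve cells, by 0.94 ± 0.31 (adjusted p = 0.0245), and this call was lost without WT resting Th2 replicate C (0.75 lower, adjusted p = 0.112) or WT resting Naïve replicate C (adjusted p = 0.0848) and with medians set equal (0.48 lower, adjusted p = 0.19). In the order of WT means, resting Naïve and stimulated Th2 cells did not differ (0.05, adjusted p = 0.907), and each further step down, to resting Th2 and to stimulated Naïve cells, was just past the threshold (adjusted p = 0.0403 and 0.0488).

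Slamf7 (CRACC), a receptor that works through another adaptor than SAP, was dim. It was detected on 1 WT resting Th2 array and on all 3 stimulated Th2 arrays, which read 4.27, 4.20 and 4.66 at rest and 5.34, 5.50 and 6.32 after stimulation, a difference of 1.34 ± 0.24 (adjusted p = 0.000259, limma) whose size rests on 2 resting arrays at background, so no fold is given. In WT Naïve cells the step from 5.07, 4.67 and 4.92 to 5.08, 5.34 and 5.41 was 0.39 ± 0.24 and did not pass (adjusted p = 0.213), although these arrays did not overlap. No neighbours in the order of its WT means (stimulated Th2 highest, then stimulated Naïve, resting Naïve and resting Th2) differed, although the last pair did with array medians set equal (0.79 lower in Th2 cells, adjusted p = 0.0323). Slamf6 (Ly108, NTB-A) was not detected on any WT array, where its probe read 4.28 to 4.49, so no change between states is given for it. With 1 dim probe, this does not show that the Slamf6 transcript was absent.

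Cd48, the ligand of CD2 and CD244, was the member called higher in resting Th2 than in resting Naïve cells. It was not detected on any of the 3 WT resting Naïve arrays and was detected on every array of the other WT states. It is read by 1 dim probe, so the lack of detection does not show that the transcript was absent. WT resting Th2 arrays read 6.03, 5.46 and 5.94, at least 1.96-fold higher than in resting Naïve cells (limma, adjusted p = 4.42e-05), where the bound uses the lowest signal detected on each array. Stimulated Naïve arrays read 4.87, 4.96 and 5.31, at least 1.15-fold higher than at rest (adjusted p = 0.0145). This second call was lost without WT stimulated Naïve replicate C (adjusted p = 0.0787), with an offset of 50 (0.0583), with Z-scores (0.16) and with array medians set equal (0.257). Values this close to background depend on the background step: with an offset of 50 the rise of Slamf7 in Th2 cells was 0.69 instead of 1.34, and it was still called. In Th2 cells stimulation moved Cd48 by -0.48 ± 0.23 (adjusted p = 0.147). The neighbours of its WT order, resting Th2, stimulated Th2 and stimulated Naïve cells, did not differ, and stimulated and resting Naïve cells did.

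Sh2d1a, the adaptor SAP, was lower after both stimulations. WT Naïve arrays read 7.07, 7.79 and 7.65 at rest and 6.57, 5.96 and 5.92 after stimulation, a fall of 1.36 ± 0.31, or 2.56-fold (adjusted p = 0.0011, limma). WT Th2 arrays read 6.92, 7.31 and 7.78 at rest and 5.76, 6.35 and 5.86 after stimulation, a fall of 1.35 ± 0.31, or 2.55-fold (adjusted p = 0.00206). Resting and stimulated arrays did not overlap in either cell type. Before normalization the WT Naïve intensities were 86.8 to 180.7 and 80.9 to 126.5, and with array medians set equal the fall in Naïve cells was 0.87 (adjusted p = 0.0274). The states fell into a resting and a stimulated pair: resting Naïve and resting Th2 cells differed by 0.17 ± 0.31 (adjusted p = 0.724) and stimulated Naïve and stimulated Th2 cells by 0.16 (adjusted p = 0.832), whereas resting Th2 and stimulated Naïve cells differed by 1.19 (adjusted p = 0.00694).

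These counts stand against a large background, since activation and differentiation moved much of the array. On stimulation of WT Naïve cells Slamf1 and Cd48 were called higher, as were 25.5% of all genes, and Ly9, Cd84 and Sh2d1a lower, as were 22.8%. On stimulation of WT Th2 cells Slamf1, Slamf7 and Cd84 were called higher (13.9% of all genes) and Sh2d1a lower (16.4%). Between WT resting Th2 and resting Naïve cells Cd48 was higher (21% of all genes) and Ly9 and Cd84 were lower (18.7%). The difference of Slamf1 was higher than that of 97.8% of all probes on stimulation of Naïve cells and of 99.0% in Th2 cells.

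**Figure D2:**
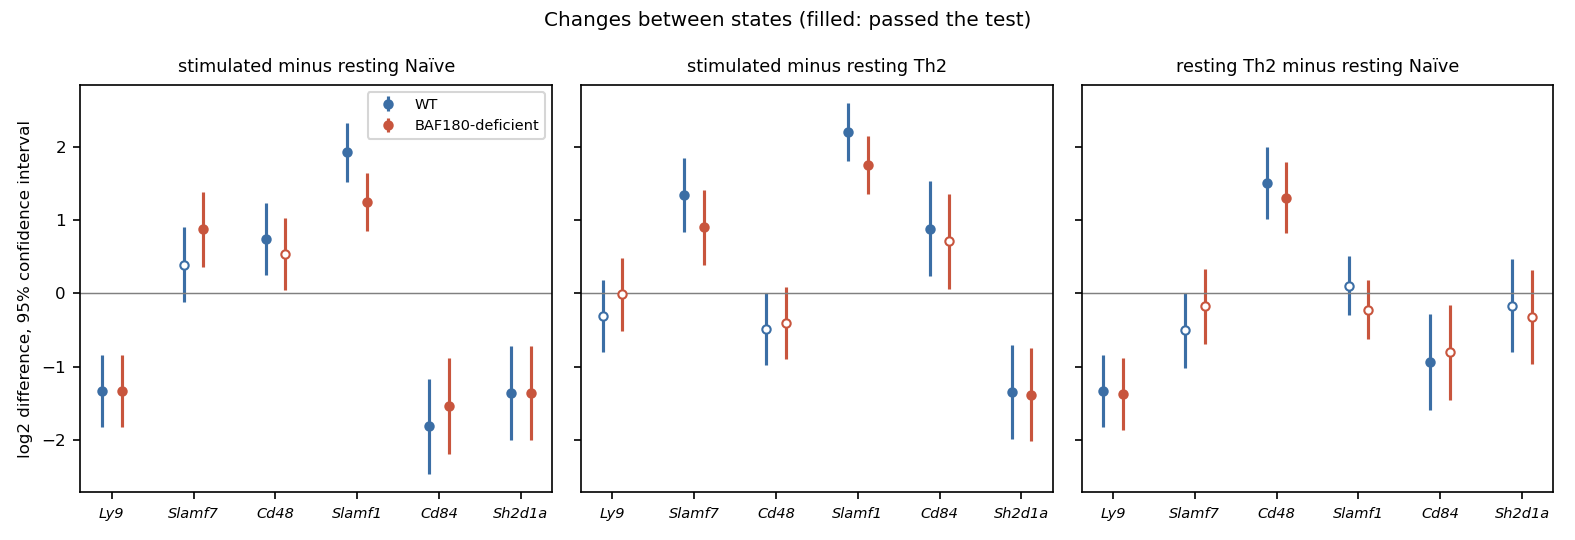
Log2 difference between states with its 95% confidence interval (vertical axis) for 6 members (horizontal axis), in 3 panels for stimulation of Naïve cells, stimulation of Th2 cells and resting Th2 against resting Naïve cells, WT in blue and BAF180-deficient in red, filled where the adjusted p was below 0.05. Slamf1 rises in both stimulations and Sh2d1a falls in both, Cd84 falls in Naïve cells and lies above 0 in Th2 cells, and the intervals of the genotypes overlap for every member.

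Markers of other cells moved with the comparisons that involve resting Naïve cells. All 9 kept myeloid markers of 11 (Lyz2, Cd14, Csf1r, Adgre1, Cd68, Fcer1g, Tyrobp, S100a8 and S100a9) were lower in stimulated Naïve and in resting Th2 than in resting Naïve WT cells. Their summed intensity was 1192.8 to 4958.0 per WT resting Naïve array and 381.3 to 573.2 in the other WT states, and Lyz2 was at least 31.5-fold higher in resting than in stimulated Naïve cells. B cell markers summed to 452.4 to 870.5 per WT resting Naïve array and to 286.2 to 590.4 in the other WT states, with Cd79a and Cd22 called lower in both comparisons and Fcer2a higher in stimulated Naïve and lower in resting Th2 cells. Of 8 regulatory T cell markers 5 (Foxp3, Ikzf2, Itgae, Nrp1 and Gpr83) were called lower in both comparisons and 2 (Il2ra and Tnfrsf18) higher. Of the 6 kept markers of NK, NKT and CD8 T cells, Klrd1, Cd8b1 and Gzmk were called lower in both and Klrk1 in stimulated Naïve cells. Ly9 and Cd84 are known from myeloid and B cells as well as T cells, and the part of such cells in their values was not tested. In bulk RNA, fewer cells of a type and less RNA per cell cannot be told apart. Th2 markers (Gata3, Il4, Il5, Il13, Il1rl1, Ccr4, Ccr8 and Il24) summed to 489.6 to 534.6 per WT resting Naïve array and to 22080.5 to 45893.4 per WT stimulated Th2 array.

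The comparison that the study was built for is that of the genotypes, and here Slamf1 was the 1 member called within a state or as a mean of states. In resting Naïve cells the BAF180-deficient arrays read 8.16, 7.89 and 7.92 and the WT arrays 6.77, 7.19 and 7.28, a difference of 0.91 ± 0.19, or 1.88-fold (95% confidence interval 0.51 to 1.31 on the log2 scale, adjusted p = 0.0908, limma). All BAF180-deficient arrays were above all WT arrays, in normalized values, and the letter pairs differed by 0.63 to 1.39. Calls between genotypes within a state followed the 4 criteria that the methods set, here applied to the quantile-normalized log2 values in place of Z-scores, namely an adjusted p below 0.3, a p below 0.05, a signal above 0 and a Z-ratio (the difference over the SD of all differences) beyond 1.5. By these 92 genes, or 0.883%, were called in resting Naïve cells, and the Z-ratio of Slamf1 was 3.96. In Th2 cells 11 genes were called at rest and 11 after stimulation. The study itself reported fewer genes affected by the loss of BAF180 in Naïve than in differentiated cells. The present counts run the other way at rest only, since 10 genes were called in stimulated Naïve cells. With Z-scores the order at rest turned: 5 genes were called higher and 7 lower in resting Naïve cells, against 14 and 13 in resting Th2 cells. The present counts are not those of the study, and the reason for the remaining difference was not tested. Slamf1 was not called at an adjusted p of 0.05, nor when the fit used the 6 arrays of this state only (adjusted p = 1), when these were normalized by themselves (0.83, adjusted p = 0.94) or when array medians were set equal (0.90, adjusted p = 1). It stayed called when each of these 6 arrays was left out in turn, with differences of 0.76 to 1.01, and its adjusted p ran from 0.0265 to 1 over all alternatives. The other Slamf1 probe differed by 0.46 ± 0.27, with 5.88, 5.74 and 5.15 against 5.60, 4.94 and 4.84, which overlap, and was not called (adjusted p = 0.84).

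**Figure D3:**
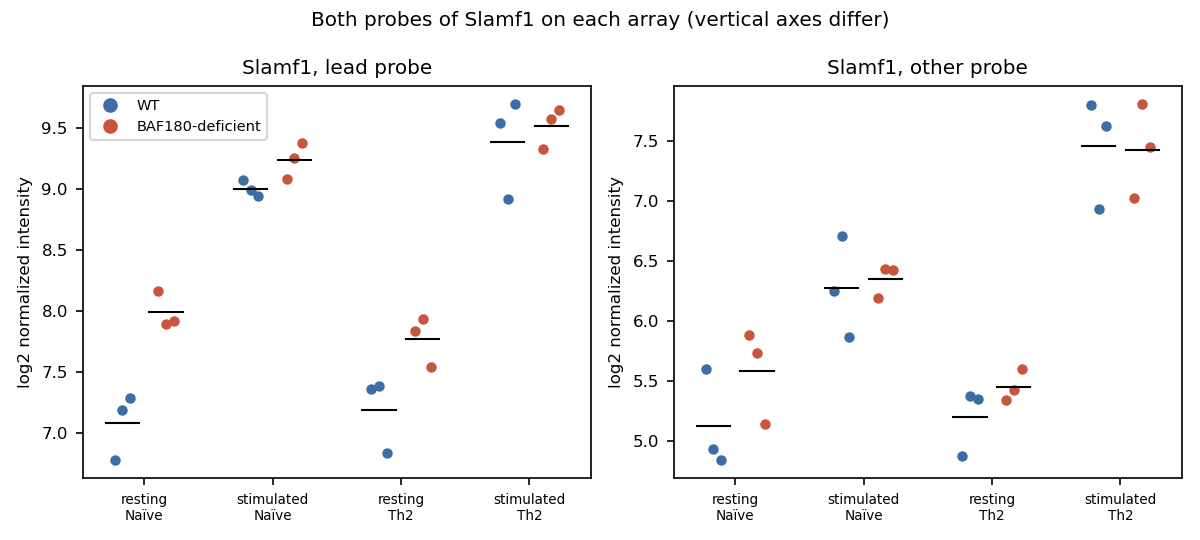
Log2 normalized intensity (vertical axes, which differ) of the lead and the other probe of Slamf1 in the 4 states (horizontal axes), 1 point per array, WT in blue, BAF180-deficient in red, bars for the mean of 3 arrays. The lead probe shows the resting Naïve arrays of the genotypes apart (6.77 to 7.28 against 7.89 to 8.16), and on the other probe they overlap.

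In the other states the genotype difference of Slamf1 was smaller and was not called. Resting Th2 arrays read 7.83, 7.93 and 7.54 without BAF180 and 7.35, 7.38 and 6.83 with it, which do not overlap and differ by 0.58 ± 0.19 (adjusted p = 0.986). Stimulated Naïve arrays read 9.08, 9.25 and 9.38 against 9.07, 8.99 and 8.94, a difference of 0.24 ± 0.19 (adjusted p = 1), with the lowest of the former just above the highest of the latter. Stimulated Th2 arrays overlapped and differed by 0.13 ± 0.19 (adjusted p = 1). As a mean of the 4 states the difference was 0.46 ± 0.10, or 1.38-fold (adjusted p = 0.0336, limma), higher without BAF180 in 10 of 12 letter pairs, and Slamf1 was 1 of 40 genes called at an adjusted p below 0.05 (0.384%). The other Slamf1 probe had a mean difference of 0.19 ± 0.13 (adjusted p = 0.85), higher in 8 of 12 letter pairs. That call was close to the threshold. With genotype and letter together as a random block, the adjusted p of the lead probe was 0.0699 (limma). This takes a letter as the same mouse in all states, which the labels do not say. The adjusted p lay between 0.0518 and 0.0789 without any one of 12 arrays: BAF180-deficient resting Naïve A or B, stimulated Naïve B or C, resting Th2 A or B or stimulated Th2 B or C, and WT resting Naïve A, stimulated Naïve B or C or stimulated Th2 B.

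Whether the genotype difference of Slamf1 itself changed with the state was tested as an interaction. Stimulation of Naïve cells raised Slamf1 by 1.25 without BAF180 and by 1.92 with it, a difference of -0.67 ± 0.27 (unadjusted p = 0.0217, adjusted p = 1, limma). In Th2 cells the difference was -0.45 ± 0.27, and between resting Th2 and resting Naïve cells -0.33 ± 0.27 (adjusted p = 1 for both). No member was called in any of the 3 interactions, nor was any gene (0%): 324, 257 and 385 of 14246 probes had an unadjusted p below 0.05, and the lowest adjusted p-values were 0.0551, 0.619 and 0.0503.

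The genotype differences of some marker lists lay mostly on the same side in resting Naïve cells, with few of their genes called. All 9 kept memory T cell markers had a higher mean without BAF180, with a median difference of 0.53 beside 0.00 for all genes. Of them 1, S100a6, was called (1.07 ± 0.29), as were 0.883% of all genes. Before normalization the summed intensity of the 9 was 842.5 to 1154.8 per WT array and 1377.5 to 1713.0 per BAF180-deficient array, which do not overlap. All kept probes summed to 1720029 to 2533274 per WT array and to 1943036 to 2715052 per BAF180-deficient array. The list holds Cd44, whose RNA value is that of 1 of 6 kept probes. By staining, the study found CD44 protein lowered on BAF180-deficient peripheral T cells, and CD62L unchanged. Of 8 regulatory T cell markers 7 had a higher mean (median 0.40, none called). Of 8 kept markers of Naïve or quiescent cells 2 had a higher mean, and Dapl1 was called lower (1.07 lower). A higher mean was also seen for 6 of 7 kept B cell, 6 of 9 myeloid and 5 of 7 CD4 T cell markers. It was seen for 2 of 6 kept markers of NK, NKT and CD8 T cells and 2 of 8 Th2 markers. None in these lists was called. Slamf1 is known to be higher on memory than on Naïve T cells, and the part of the cell makeup in its difference was not tested.

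Cd48 had a higher mean without BAF180 in all 4 states and was called in none. In resting Naïve cells it was not detected in WT and was detected on 2 of 3 BAF180-deficient arrays, which read 4.38, 5.04 and 5.32 (at least 1.05-fold higher, adjusted p = 0.608). Without the first of these arrays, replicate A, it was called (adjusted p = 0.215). The other states differed by 0.40, 0.41 and 0.49, each ± 0.23, and only the stimulated Th2 arrays did not overlap (5.81, 5.70 and 5.95 against 5.58, 5.12 and 5.28). The mean of the 4 states was 0.48 ± 0.12 higher, in 10 of 12 letter pairs (adjusted p = 0.099, limma), with the undetected arrays at their measured values. That misses the adjusted p of 0.05 used for the mean of states, but it passes the 4 criteria used within states. With the replicate letter as a block this passed (adjusted p = 0.0383), as it did without BAF180-deficient resting Naïve replicate A (0.55, adjusted p = 0.0281).

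Ly9, Slamf7, Cd84 and Sh2d1a showed no called difference between genotypes. Their 20 differences, in 4 states and as a mean of states, lay between -0.36 and 0.24, and between -0.55 and 0.58 over the alternatives, under which none was called. The precision behind these values was modest: the 95% interval of the mean of states was -0.21 to 0.28 for Ly9, -0.33 to 0.18 for Slamf7, -0.27 to 0.38 for Cd84 and -0.18 to 0.46 for Sh2d1a. Slamf6 was not detected on any WT array and was detected on 2 BAF180-deficient resting Th2 arrays (4.70 and 4.55) and 2 BAF180-deficient stimulated Th2 arrays (4.77 and 4.93). All its values lay between 4.22 and 4.93, and no fold is given. It was higher without BAF180 in 11 of 12 letter pairs (3 letters in each of 4 states), in all of which the WT array was undetected. Slamf1 and Cd48 were higher in 10 each. For none of these counts was the share over all genes determined.

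**Figure D4:**
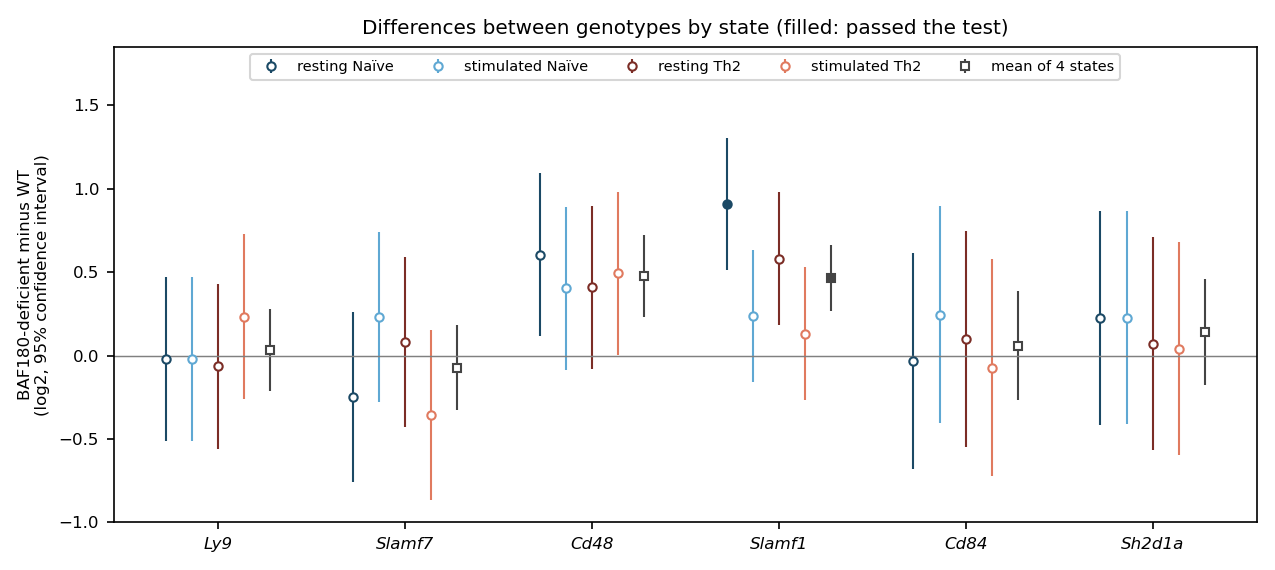
BAF180-deficient minus WT log2 difference with its 95% confidence interval (vertical axis) for 6 members (horizontal axis) in each of 4 states and as the mean of the states (squares), filled where the test was passed. Slamf1 in resting Naïve cells (0.91) and its mean of states (0.46) are filled, and Cd48 lies above 0 in every state.

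Across the members, then, 1 was called in resting Naïve cells and none in the other states. There 0.096% (stimulated Naïve), 0.106% (resting Th2) and 0.106% (stimulated Th2) of all genes were called, and 320, 492 and 387 probes had an unadjusted p below 0.05 (limma). Arrays of the genotypes did not overlap for Slamf1 in every state but stimulated Th2, for Cd48 in stimulated Th2 cells, and for the undetected or barely detected Slamf6 in 3 states. Over all genes this was so for 7.99% (resting) and 6.59% (stimulated) in Naïve cells and for 10.3% and 7.48% in Th2 cells. An exact two-sided permutation test of 3 arrays against 3 cannot give a p below 0.1, which is the value in each of these cases.

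Within BAF180-deficient cells the members changed between states much as in WT cells, and no difference from WT was called. With stimulation of Naïve cells Slamf1 rose by 1.25 ± 0.19 and Slamf7 was at least 1.64-fold higher (24% of all genes were higher), and Ly9, Cd84 and Sh2d1a fell by 1.33, 1.53 and 1.36 (22% lower). With stimulation of Th2 cells Slamf1 rose by 1.75 and Slamf7, detected on 1 of 3 resting arrays, was called higher (12.9% higher), and Sh2d1a fell by 1.38 (16% lower). Between resting Th2 and resting Naïve cells Cd48 was 1.31 higher (21.3% higher) and Ly9 fell by 1.37 (18.6% lower). Cd84 was not called in the last 2 of these, with 0.71 and -0.80 (adjusted p = 0.107 and 0.0509), nor Cd48 in the first, with 0.54 (adjusted p = 0.0734). With the replicate letter as a block, each of these 3 differences was called.

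Other genes of the family changed between states as well. CD2, the adhesion receptor that binds CD48, fell by 0.60 ± 0.20 when WT Naïve cells were stimulated (adjusted p = 0.0165), while Cd244a, the other CD48 receptor, was detected on 1 of 3 arrays of resting Naïve cells of each genotype and on no array of the other states. Slamf9 was at least 5.1-fold higher in WT resting than in stimulated Naïve cells (adjusted p = 3.54e-07), and Slamf8 was detected on 1 WT resting Naïve array. All 9 kept myeloid markers were also lower in WT stimulated than in resting Naïve cells. The part of such cells in the Slamf9, Slamf8 and Cd244a values was not tested. Neither Cd2, Cd244a, Slamf8 nor Slamf9 was called between genotypes.

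Of 16 genes of SAP signaling 14 were kept. On stimulation of WT Naïve cells, where 25.5% of all genes were called higher and 22.8% lower, 1 was higher (Nfkb1, a subunit of NF-kappaB, by 0.85 ± 0.23) and 9 were lower, among them Fyn, the kinase that SAP recruits (0.97 ± 0.17 lower), Prkcq, the protein kinase C of T cells (0.97 lower), Csk, which restrains Src kinases (1.49 lower), and Dok2, a docking protein (1.99 lower). On stimulation of WT Th2 cells (13.9% and 16.4% of all genes) 3 were higher (Fyn by 1.30 ± 0.17, Bcl10 by 0.69, Nfkb1 by 1.69) and 6 lower. These Fyn values are from its brighter probe, and its other kept probe was not called in either (0.13 ± 0.13 and -0.07 ± 0.13). In resting Th2 against resting Naïve WT cells (21% and 18.7%) 2 were higher and 5 lower, with Fyn 1.27 lower. Their median difference in these comparisons was -0.70, -0.46 and -0.24. Between genotypes Ptpn11, the phosphatase SHP-2, was called lower without BAF180 in resting Naïve cells (0.883% of all genes called) on 1 of its 3 kept probes (by 0.50 ± 0.14), while its brightest probe read 0.09 ± 0.16.

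Of 9 genes that textbook accounts tie to SAP in T cells 7 were kept, and none was called between genotypes in any state. Whether they depend on SAP in the cells used here was not tested. On stimulation of WT Th2 cells, where 13.9% of all genes were called higher, 5 rose: Il4 by 4.70 ± 0.48, Il13 by 3.39 ± 0.26, Il21 by 3.49 ± 0.60, Gata3, the Th2 transcription factor, by 1.14 ± 0.18, and Bcl6, the factor of follicular helper cells, by 1.38 ± 0.31. On stimulation of WT Naïve cells (25.5% of all genes higher, 22.8% lower) Il4, Il13 and Gata3 were higher, and Bcl6 (2.21 ± 0.31) and the costimulatory receptor Icos, on 1 of its 2 kept probes, were lower. In WT resting Th2 cells Il4, Gata3 and Icos (on the other of its probes) were higher and Bcl6 and Cxcr5 lower than in resting Naïve cells (21% and 18.7% of all genes).

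The genes around the receptor cluster were examined because the receptors are neighbours in the genome. Besides the receptors, 66 genes lie in the cluster or within 500 kb of it, and 21 of them were kept. In resting Naïve cells, where 0.883% of all genes were called between genotypes, 1 of the 21 was called. This was Ppox, an enzyme of heme synthesis, on 1 of its 2 probes (0.70 ± 0.11 lower without BAF180), while its brighter probe read -0.29 ± 0.23. In the mean of states, where 0.384% of all genes were called, 1 of the 21 was called, Sdhc, a subunit of succinate dehydrogenase (0.40 ± 0.09 higher, adjusted p = 0.0449). The median difference of the 21 in resting Naïve cells was 0.01, beside 0.00 for all genes, and of the 6 receptors in their midst Slamf1 alone was called, with Cd84 next to it at -0.03 ± 0.31.

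**Figure D5:**
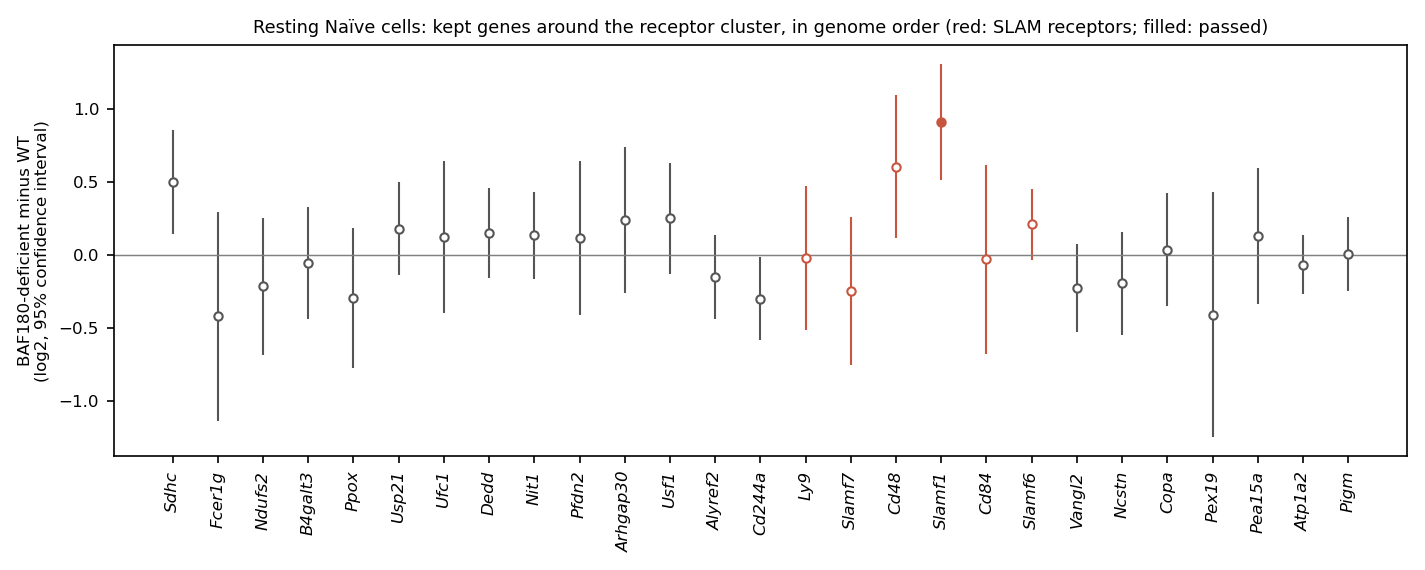
BAF180-deficient minus WT log2 difference in resting Naïve cells with its 95% confidence interval (vertical axis) for the lead probe of each kept gene in and around the receptor cluster, in genome order (horizontal axis, not to scale), receptors in red, filled where called. Slamf1 (0.91) is the filled point, and of its neighbours Cd84 stands at -0.03 and Cd48, which was not detected in WT and is drawn at its measured means, is open.

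Across the 24 arrays the members did not move as 1 group. Slamf1 and Slamf7 had an r of 0.76 and Slamf1 and Sh2d1a one of -0.83, while Ly9 and Sh2d1a had 0.66, Ly9 and Cd48 -0.69 and Slamf1 and Cd84 -0.14. These describe arrays that share states and normalization and are given without a test. The genes whose lead probe was most like that of a member over the 24 arrays, by Pearson r, were Pwp2, Rcl1 and Trmt61a for Slamf1 (0.93 to 0.96), Vamp8, Pold4 and Lasp1 for Sh2d1a (0.95 to 0.96), Baz2a, Dnajc5 and Mycbp2 for Ly9 (0.95 to 0.96), Rhof, Zyx and Rmc1 for Cd84 (0.89 to 0.90), Mars2, Gtpbp4 and Spred1 for Slamf7 (0.85 to 0.88) and Mlx, Dbi and Spc25 for Cd48 (0.84 to 0.85). For Slamf6 no gene reached 0.65, and its nearest, Septin7, had 0.64.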

How the data were processed

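The authors labelled cRNA, hybridized it to Illumina MouseRef-8 v2 BeadChips and deposited, per the file headers, per probe an average bead intensity and a detection p-value on every array. GenomeStudio (version 1.6.0 in the submitters' processing notes) made these values; they were neither normalized nor background-subtracted, and the Z-scores of the methods are not among them. Here intensities were corrected for background (mean and SD inferred from the detection p-values, offset 16), log2 transformed and quantile normalized over 24 arrays (limma 3.58.1, R 4.3.3). The filter kept a probe where its detection p-value reached 0.02 or less on 1 array or more. A model with 8 group means and moderated variances was fitted to all of them, and p-values were adjusted over all kept probes by Benjamini-Hochberg. Genotype calls within a state used the 4 criteria of the methods, with the Z-ratio taken on quantile-normalized log2 values and p-values from limma. The signal criterion was met by every probe, since it was taken after the offset. The mean of states and all other calls used an adjusted p below 0.05. A gene was called when 1 of its probes was. The lead probe is the kept probe with the highest mean. Probes were named through RefSeq gene tables, and Pbrm1 by a synonym. The fit was tested on simulated data.

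Named genes were all members, Pbrm1, the list genes called or with the largest differences, and for each member the 3 most alike. The members and lists were chosen with earlier results of these data known. The labels do not say that arrays are from separate mice, so p-values measure the spread between arrays, which may be in part technical; the study speaks of pairs of mice. Deviations of WT and BAF180-deficient arrays of the same letter correlated at 0.302 (A), 0.136 (B) and 0.517 (C) over the 4 states pooled. Within a state they ran from -0.004 (B, resting Naïve) to 0.66 (C, stimulated Th2). The letters were read as pairs, with the letter as a block as an alternative. That block fitted a shift per letter shared by all groups, and did not pair the genotypes within a state.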

Additional observations from a re-analysis of the deposited data

Results flagged for a closer look

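The mean difference of Cd84 between stimulated and resting WT cells was -1.81 (log2) in Naïve cells and 0.88 in Th2 cells. Every WT stimulated Naïve array was below, and every WT stimulated Th2 array above, all WT resting arrays of its cell type. The WT rise in Th2 cells was not called under 10 of 17 alternatives. In BAF180-deficient Th2 cells the arrays overlapped, and the rise of 0.71 was not called (adjusted p = 0.107, limma). The difference between the WT changes in Naïve and in Th2 cells was not tested, and the stimulations differed in agent and length.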

How the results depend on the processing

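The number of members called was recomputed under each alternative. For the genotypes in resting Naïve cells (1, Slamf1) it was 0 with array medians set equal, with only the compared arrays, at an adjusted p below 0.05 and with normalization within the state, 2 (with Cd48) without the adjusted p among the criteria, and 1 to 2 when an array was left out. That last criterion dropped, it was 1 instead of 0 in resting Th2 cells (Slamf1) and 2 instead of 0 in stimulated Th2 cells (Cd48 and Slamf6). For the mean of states (1) it was 0 with an offset of 50, medians set equal, no filter, no moderated variances or genotype and letter together as a random block, 2 (Cd48 and Slamf1) with the replicate block, and 0 to 1 when an array was left out. For stimulation of Naïve cells it was 2 instead of 5 in both genotypes by the 4 criteria. For BAF180-deficient resting Th2 against resting Naïve cells it was 4 instead of 2 with medians set equal. The replicate block also raised the 3 counts for state changes in BAF180-deficient cells, from 5 to 6 (Naïve stimulation), 3 to 4 (Th2 stimulation) and 2 to 3 (Th2 against Naïve), and changed no other number of members called. Over all genes it moved the number called between genotypes from 10 to 21 in stimulated Naïve cells, from 11 to 18 in stimulated Th2 cells and from 40 to 80 for the mean of states. In resting Naïve cells 52 genes were called higher and 40 lower, against 5 and 7 with Z-scores and 0 and 0 with medians set equal. In resting Th2 cells 4 were called higher and 7 lower, against 14 and 13 with Z-scores and 20 and 11 with medians set equal. Which of these 2 states had more calls thus depended on the normalization.

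Values near 0 turned sign. Sh2d1a in WT resting Th2 against resting Naïve cells was 0.061 with Z-scores, 0.21 with medians set equal and -0.39 to 0.041 when an array was left out (above 0 without WT resting Th2 replicate A). Slamf1 between genotypes in stimulated Th2 cells was -0.013 with medians set equal and -0.10 to 0.29 when an array was left out (below 0 without WT stimulated Th2 replicate B). Slamf1 in WT resting Th2 against resting Naïve cells was -0.049 to 0.29 when an array was left out (below 0 without WT resting Naïve replicate A). Of 436 alternative genotype values of Ly9, Slamf7, Cd84 and Sh2d1a, 40 had the other sign and 0 were called. The causes were not tested. The slide could not be tried as a block, since the table names none. Normalization within a cell type was added after the values were seen. Cd48, Slamf6 and Slamf7 lie near background, which limits their values.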
